A study of Mus musculus with 9 samples.

Results

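The genes examined here are 6 that sit upstream or downstream of p53 and the retinoblastoma protein: Cdkn2a, Cdkn2b, Mdm2, Mdm4, Ppm1d and Cdkn1a. Their DNA copy number was read in 9 mouse mammary tumours. They were chosen by name, and their probes by position: 411 of the 963261 distinct array probes lie in 5 windows of 150 or 200 kb that hold the genes, with Cdkn2a and Cdkn2b sharing 1 window. The tumours are 2 Ad-Cre transplants (labelled Ad-CMVcre), 5 MMTV-Cre transplants, 1 MMTV-Cre tumour labelled nulliparous and 1 labelled parous. The labels give all 9 the floxed alleles Rbf/f;p53f/f, a mixed strain background and Cre as the means of deletion; the mouse mammary tumour virus promoter drives Cre mainly in mammary epithelium, and in the other model an adenovirus carries Cre. No age is given. The reference on every array was pooled tail DNA of tumour-free mice of the same mixed background. The labels call the tumours independent and primary, but do not give the donors of the transplants, and bulk tumour DNA also holds DNA of host cells, whose share was not measured.

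In background, p53 and the retinoblastoma protein each stop a damaged or overdriven cell from dividing. Cdkn2a makes 2 unrelated proteins from separate first exons: p16Ink4a blocks the kinases Cdk4 and Cdk6 and so keeps the retinoblastoma protein active, and p19Arf binds Mdm2 and so protects p53. Cdkn2b, next to it, encodes p15Ink4b, another inhibitor of Cdk4 and Cdk6. Mdm2 is the ubiquitin ligase that sends p53 for degradation, Mdm4 is its relative that masks the activating domain of p53, and Ppm1d is a phosphatase that switches the p53 response off again. Cdkn1a, a target of p53, encodes p21, which inhibits cyclin-dependent kinases. Deletion of Cdkn2a and extra copies of Mdm2, Mdm4 or Ppm1d are known in human tumours that keep p53, which is why these genes are of interest where Cre is meant to remove p53.

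The 3 annotated starts of Cdkn2a and Cdkn2b are shown because the shortest and deepest loss at any of the 5 windows fell at this locus. Each is the 250 bases before a start, 5' to 3' on the minus strand of chromosome 4, from RefSeq on GRCm38.p6, a build whose positions are not those of the array. Capitals mark the GC box GGGCGG, searched on both strands, which 32.7% of 32851 such promoters hold.
Cdkn2a first start, chr4:89294620-89294869: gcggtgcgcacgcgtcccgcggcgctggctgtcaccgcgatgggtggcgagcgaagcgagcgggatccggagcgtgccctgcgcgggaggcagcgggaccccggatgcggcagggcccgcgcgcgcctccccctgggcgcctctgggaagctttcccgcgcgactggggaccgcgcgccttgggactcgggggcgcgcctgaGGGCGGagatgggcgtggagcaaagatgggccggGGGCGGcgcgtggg
Cdkn2a second start, chr4:89282193-89282442: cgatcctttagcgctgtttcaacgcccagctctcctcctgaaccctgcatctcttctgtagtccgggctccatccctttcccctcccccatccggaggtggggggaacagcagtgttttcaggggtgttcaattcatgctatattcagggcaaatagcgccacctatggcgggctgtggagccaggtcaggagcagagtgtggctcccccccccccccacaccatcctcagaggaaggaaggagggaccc
Cdkn2b start, chr4:89311033-89311282: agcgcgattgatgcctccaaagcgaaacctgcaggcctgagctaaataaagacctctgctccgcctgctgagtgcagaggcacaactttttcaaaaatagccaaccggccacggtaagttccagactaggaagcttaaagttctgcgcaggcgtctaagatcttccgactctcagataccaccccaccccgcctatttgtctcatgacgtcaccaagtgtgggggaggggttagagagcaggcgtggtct
The first Cdkn2a promoter holds 2 matches, and the second and that of Cdkn2b hold 0. In that build the 2 Cdkn2a starts lie 12.4 kb apart, Cdkn2a spans 20.1 kb, and the stretch from the end of Cdkn2a to the far end of Cdkn2b spans 36.6 kb.

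Each value below is a log2 ratio of tumour over pool, with each array centred on its autosomal median, so 0 is the level of the middle of that tumour's autosomes. Median processed signals were 1067 to 1157 in tumour DNA and 1068 to 1147 in pool DNA, and neighbouring probes scattered by 0.16 to 0.18 within an array. Positions are read as mm9, the build of the windows, since the files name none. In the library labelled MMTV-Cre transplant 2, a run of 4 probes at chr11:69397121-69402566, taken as the Cre-deleted part of Trp53, kept 97.8% of the signal of the 20 probes on each side. It kept 30.7% to 59.8% in the other 8 tumours, with a median of 36.2%. No probe is paired with a gene in the files, and 3 runs of this kind were found in the genome, on chromosomes 6, 11 and 14 (4 probes, each 0.5 or more under both sides, in 7 tumours or more). That library thus kept this run, although the labels give Cre as the means of deletion. Whether its label is right was not determined. Results that rest on it are given with and without it, except the search for windows with similar values.

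The Cdkn2a and Cdkn2b window, chr4:88850001-89000000, lies between Mtap and Dmrta1 in gene order and holds 45 probes. Its window mean was 0.26 and 0.07 in Ad-Cre transplants 1 and 2. It was 0.25, -0.57, 0.13, -0.50 and 0.14 in MMTV-Cre transplants 1 to 5, 0.17 in the nulliparous tumour and -0.09 in the parous tumour. Both clearly low values are thus MMTV-Cre transplants, and they are low in different ways.

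**Figure D1:**
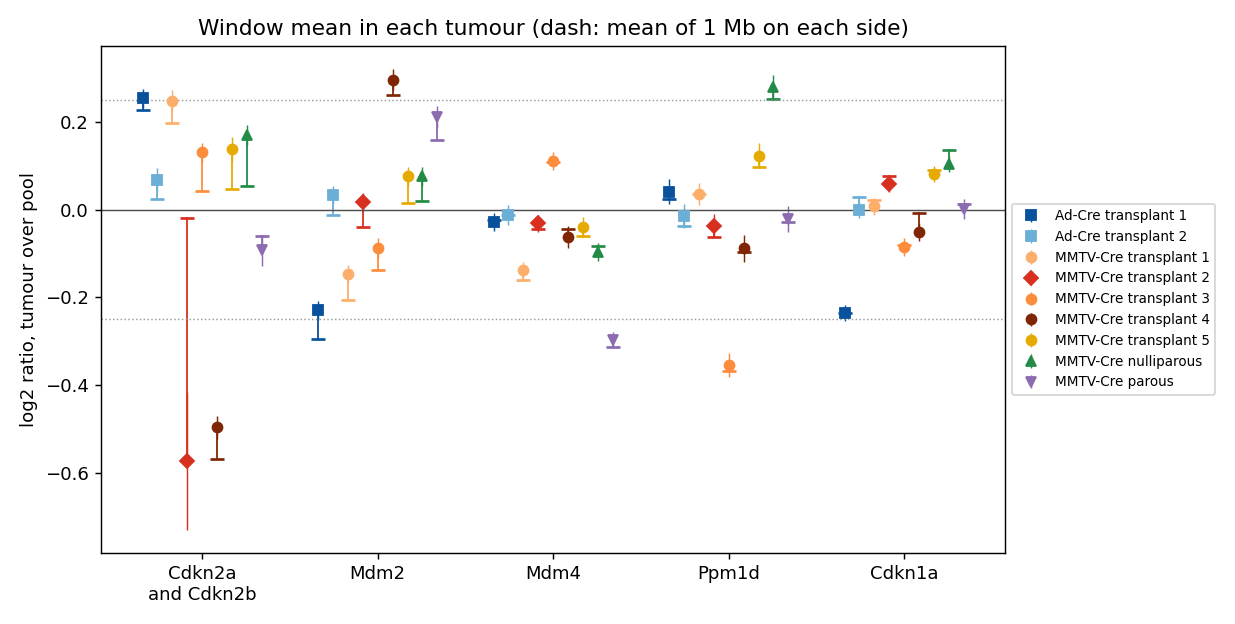
Log2 ratio of tumour over pool for the 5 windows (x axis) in each of 9 tumours. Markers are window means, thin vertical bars the standard error over probes of 1 array, dashes the mean of the probes within 1 Mb on each side, joined to the marker by a line, and dotted lines the thresholds of 0.25 and -0.25. At Cdkn2a and Cdkn2b the library labelled MMTV-Cre transplant 2 stands far below its own surroundings (-0.57 against -0.02), while MMTV-Cre transplant 4 lies close to its own (-0.50 against -0.57).

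In the library labelled MMTV-Cre transplant 2, 12 consecutive probes from 88911815 to 88930670 on chromosome 4 averaged -2.26, between -2.77 and -1.64. The probes within 1 Mb on each side averaged -0.02, so the run kept 21.1% of the signal beside it (-2.24). The 33 other probes of the window lay 0.06 above those surroundings, the 14 before the run and the 19 after it included. The loss therefore spans 18.9 kb between the outermost lost probes, and at most 21.4 kb between the nearest probes that were not lost.

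At the same 12 probes the other 8 tumours lay 0.07 to 0.14 above their own surroundings, with a median of 0.11. Their lowest single probe was 0.23 below its surroundings. The 12 probes were chosen as those at -1 or lower against the surroundings in the library labelled MMTV-Cre transplant 2. That its probes are low here was thus fixed by the choice, and the gap from the other 8 is a description only. The difference lies in the tumour channel: the median tumour signal of the run was 243 in that library, against 786 to 1475 in the other 8. The pool signal of the run was 1181 in that library and lay between 1080 and 1205 over all 9 arrays. This is 1 array of 1 tumour, so no test applies.

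The run is longer than the 12.4 kb between the 2 Cdkn2a starts and shorter than the 36.6 kb that both genes span in GRCm38.p6. If those distances also hold in mm9, which was not tested, the lost stretch cannot hold both genes whole. Whether it removed exons of Cdkn2a or Cdkn2b, and which, was not determined, because no annotation on the build of the probes was used.

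**Figure D2:**
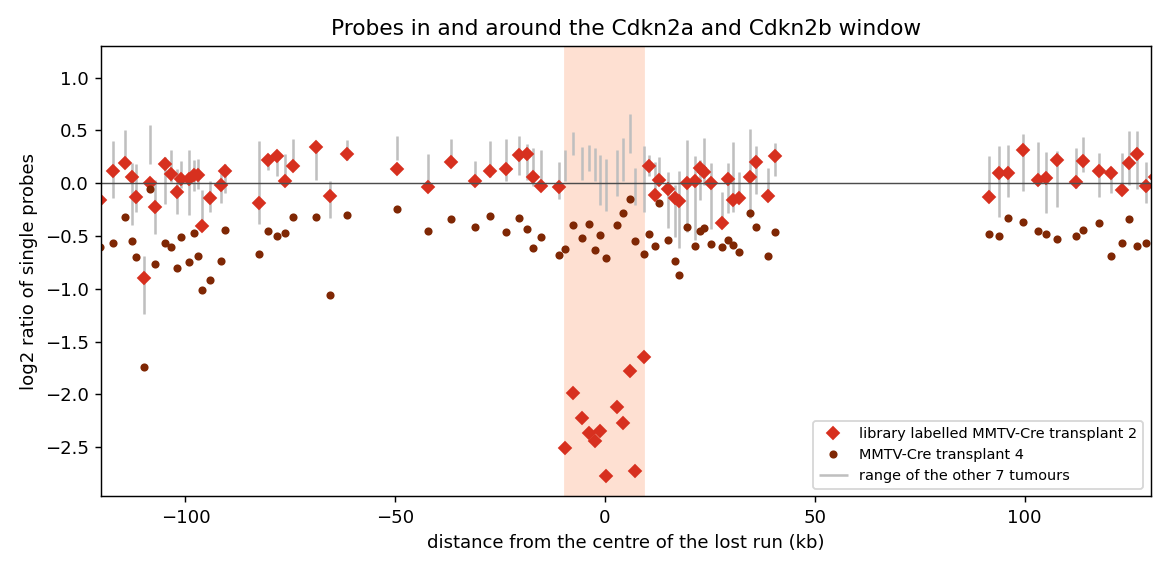
Log2 ratio of single probes (y axis) against distance from the centre of the lost run (x axis, kb). Diamonds are the library labelled MMTV-Cre transplant 2, dark points MMTV-Cre transplant 4, grey lines the range of the other 7 tumours, and the shaded band the run. Diamonds drop to between -2.77 and -1.64 inside the band and lie near 0 on both sides, while MMTV-Cre transplant 4 is lower than the grey ranges at most probes. The empty stretch on the right has no probes.

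Over all autosomes, this library had 3 runs of at least 10 consecutive probes at -1 or lower. The Cdkn2a and Cdkn2b run and a run of 12 probes at chr5:7030232-7048477, at -2.68, were low in no other tumour. The third, on chromosome 7, was also low in MMTV-Cre transplant 4. The other 8 tumours had 0 to 3 such runs each, and none of those was low in 1 tumour alone. The 3 runs of the nulliparous tumour are parts of 1 stretch, chr2:77708141-77863815. That stretch was 1 run of 64 probes in MMTV-Cre transplants 1, 3 and 5 and in Ad-Cre transplant 1. The chromosome 5 run holds no gene examined here, and it was singled out after its value was seen.

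MMTV-Cre transplant 4 carried a shallow and much wider loss. Its Cdkn2a and Cdkn2b window lay inside a segment of 2.96 Mb, chr4:86908166-89871451, with 1035 probes at -0.60, that is 66.1% of the pool signal. The next segments were at -0.12 before it and -0.16 after it. The window itself lay 0.07 above its surroundings, and the 12 probes of the short run lay 0.08 above them. Chromosome 4 of this tumour was broken up: neighbouring segments differed by at least 0.2 at 53 places, against 2 to 19 in the other 8 tumours.

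Ad-Cre transplant 1 was level across both genes, in a segment at 0.16. A gained segment of 193 kb began 147 kb from the centre of the run, at chr4:89067991-89261000, with 55 probes at 0.62. The same probes averaged 0.04 in Ad-Cre transplant 2. They averaged 0.21, 0.02, -0.10, -0.57 and 0.09 in MMTV-Cre transplants 1 to 5, 0.11 in the nulliparous tumour and -0.05 in the parous tumour. This neighbouring gain lies outside the window and was described after its values were seen.

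**Figure D3:**
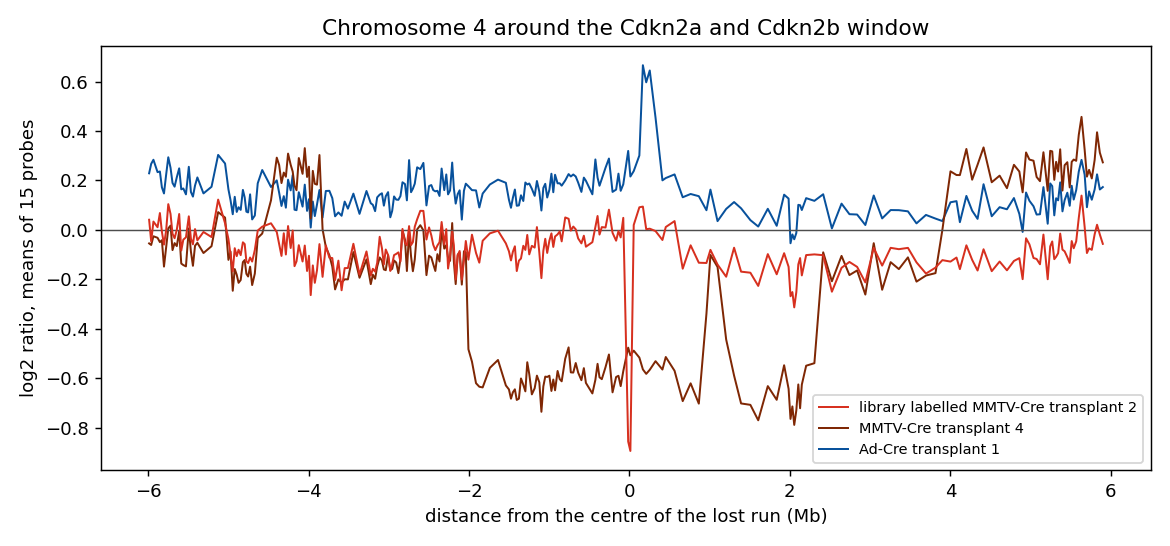
Means of 15 neighbouring probes (y axis, log2 ratio) against distance from the centre of the lost run (x axis, Mb) in 3 tumours. The library labelled MMTV-Cre transplant 2 has 1 narrow dip at 0. MMTV-Cre transplant 4 has a wide loss near -0.60, which resumes after a short break to the right. Ad-Cre transplant 1 has a short peak to the right of both genes, in the segment at 0.62.

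The short Cdkn2a and Cdkn2b run was then set beside the chromosome 11 run taken as part of Trp53. The first was delimited by its low values in the library labelled MMTV-Cre transplant 2. The second was found by its low values in 7 tumours or more. Part of the contrast between that library and the rest was thus fixed by the choice of runs. The library labelled MMTV-Cre transplant 2 kept 21.1% of the surrounding signal at the run in the Cdkn2a and Cdkn2b window and 97.8% at the chromosome 11 run. The other 8 tumours kept 105% to 111% at the run in the Cdkn2a and Cdkn2b window. At the chromosome 11 run, Ad-Cre transplants 1 and 2 kept 34.9% and 59.8%, MMTV-Cre transplants 1, 3, 4 and 5 kept 30.7%, 41.2%, 37.4% and 50.4%, the nulliparous tumour 30.8% and the parous tumour 31.6%. Both runs come from 1 array in that library, so a relation between them could not be tested.

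**Figure D4:**
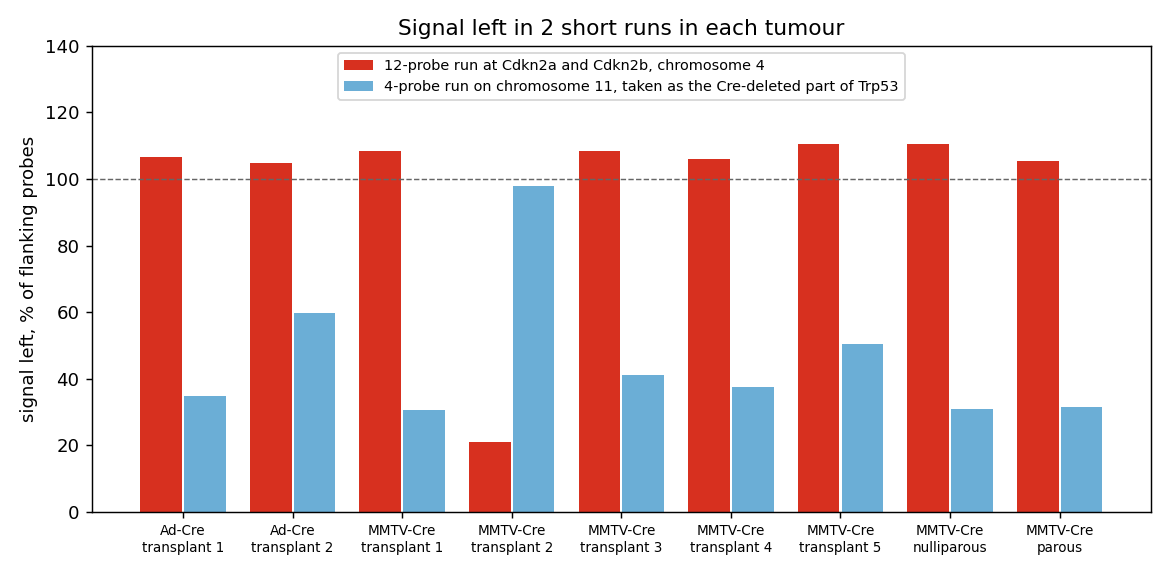
Signal left in each tumour, as a percent of the surrounding probes (y axis, from 0, with a dashed line at 100). Red left bars are the 12-probe run in the Cdkn2a and Cdkn2b window, and blue right bars the 4-probe run on chromosome 11. Each bar is 1 array, so there are no error bars. The library labelled MMTV-Cre transplant 2 is low in red (21.1%) and high in blue (97.8%), and the other 8 are high in red and lower in blue. Both runs were picked by low values in these tumours, so part of this contrast was fixed in advance.

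After the library labelled MMTV-Cre transplant 2, the parous tumour had the lowest stretch in the window. The 5 neighbouring probes from 88936288 averaged 0.45 below its surroundings, and no segment was called there. Leaving out these 2 tumours, the lowest mean of 5 neighbouring probes was between -0.14 and -0.05 in the other 7. The dips of the parous tumour were not confined to the window. Before the window, at -0.34, -0.21 and -0.14 Mb from the centre of the run, its means of neighbouring probes against the pool were -0.41, -0.37 and -0.53. The means between those positions were -0.15, -0.04 and -0.15. A loss particular to Cdkn2a and Cdkn2b in the parous tumour was thus not shown.

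Mdm2, the ligase of p53, lies between Cpm and Slc35e3. Its window, chr10:117050001-117200000, had 89 probes and means of -0.23 and 0.03 in Ad-Cre transplants 1 and 2. The means were -0.15, 0.02, -0.09, 0.30 and 0.08 in MMTV-Cre transplants 1 to 5, 0.08 in the nulliparous tumour and 0.21 in the parous tumour. Ad-Cre transplant 1 was lost here by its segment, at -0.29, from 114524867 to 129958176. The highest tumour was MMTV-Cre transplant 4, whose segment of 16.3 Mb stood at 0.24, just under the threshold for a gain. No tumour had a high-level gain of Mdm2: the highest mean of 5 neighbouring probes lay 0.37 above the surroundings.

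Mdm4, the p53-masking relative of Mdm2, lies between Lrrn2 and Pik3c2b. Its window, chr1:134800001-135000000, had 119 probes and means of -0.03 and -0.01 in Ad-Cre transplants 1 and 2. The means were -0.14, -0.03, 0.11, -0.06 and -0.04 in MMTV-Cre transplants 1 to 5, -0.10 in the nulliparous tumour and -0.30 in the parous tumour. MMTV-Cre transplant 3 alone was above 0, and the parous tumour was lost, in a segment of 59.8 Mb at -0.33. No tumour was gained.

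Ppm1d, the phosphatase, lies between Appbp2 and Bcas3. Its window, chr11:85050001-85200000, had 71 probes and means of 0.04 and -0.01 in Ad-Cre transplants 1 and 2. The means were 0.04, -0.04, -0.36, -0.09 and 0.12 in MMTV-Cre transplants 1 to 5, 0.28 in the nulliparous tumour and -0.02 in the parous tumour. The nulliparous tumour was gained, in a segment of 23.9 Mb at 0.29, and MMTV-Cre transplant 3 was lost, in a segment of 16.5 Mb at -0.35. The changes of Ppm1d thus went both ways and reached far beyond the gene.

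Cdkn1a, the p53 target that encodes p21, lies between Srsf3 and Rab44. Its window, chr17:29150001-29300000, had 87 probes and means of -0.24 and 0.00 in Ad-Cre transplants 1 and 2. The means were 0.01, 0.06, -0.08, -0.05 and 0.08 in MMTV-Cre transplants 1 to 5, 0.10 in the nulliparous tumour and 0.00 in the parous tumour. It was level in all 9 tumours at the thresholds used. The nearest to a change was Ad-Cre transplant 1, whose segment of 9.67 Mb stood at -0.24.

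Over the 5 windows and 9 tumours, a segment level of 0.25 or more was called a gain and one of -0.25 or less a loss. There was 1 gain in 45 (all autosomal windows: 7.92%) and there were 4 losses in 45 (all autosomal windows: 7.97%), and 40 were level. The losses were Cdkn2a and Cdkn2b in MMTV-Cre transplant 4, where 1.19% of all autosomal windows were lost, and Mdm2 in Ad-Cre transplant 1, where 28.3% were. They were also Mdm4 in the parous tumour, with 15.4% of windows lost, and Ppm1d in MMTV-Cre transplant 3, with 11.4%. The gain was Ppm1d in the nulliparous tumour, where 9.28% of windows were gained. By this rule the library labelled MMTV-Cre transplant 2 counts as level at Cdkn2a and Cdkn2b, because most of its window lies in the level segments around the short one. The count of losses is close to the background, and 1 gain is too few to set against it.

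Narrow changes were rarer. A window that differed from the 1 Mb on each side by 0.25 or more was found in 1 of 45, the Cdkn2a and Cdkn2b window of the library labelled MMTV-Cre transplant 2, at -0.55. Over all autosomal windows, 0.384% lay that far below their surroundings and 0.813% that far above. In that library 0.360% lay that far below. The other 44 lay between -0.04 and 0.12, so the gains and losses of Mdm2, Mdm4, Ppm1d and, in MMTV-Cre transplant 4, Cdkn2a and Cdkn2b were shared with the DNA around them.

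The study sought changes that the tumours have in common, by setting each against the pool. Against it, the mean over 9 tumours was -0.02 ± 0.31 for Cdkn2a and Cdkn2b, 0.03 ± 0.17 for Mdm2 and -0.07 ± 0.11 for Mdm4 (SD). It was -0.004 ± 0.17 for Ppm1d and -0.01 ± 0.10 for Cdkn1a. Of the 5 windows, 0 passed limma's moderated test with Benjamini-Hochberg adjustment (adjusted p = 0.233 to 0.962), against 36.8% of all windows, and 0 had an unadjusted p under 0.05, against 47.4%. Leaving that library out, Cdkn2a and Cdkn2b averaged 0.05 ± 0.25 (SD, 8 tumours). The SD between tumours was larger than the mean in every one of the 5 windows.

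Set against the DNA around them, 3 of the 5 windows passed the same limma test: Mdm2, at 0.05 above (adjusted p = 3.06e-05), Ppm1d, at 0.02 above (adjusted p = 0.0288), and Cdkn1a, at 0.02 below (adjusted p = 0.0309). Of all windows, 53.7% passed, 27.0% of them higher and 26.7% lower as shares of all, so 3 of 5 is close to the background, and the median size of the difference over all windows was 0.03. Mdm2 lay above its surroundings in 9 of 9 tumours, between 0.04 and 0.07, Ppm1d in 8 of 9, and Cdkn1a below them in 9 of 9. Ppm1d lost its call without any 1 of 5 tumours (both Ad-Cre transplants, MMTV-Cre transplants 2 and 5, and the nulliparous tumour; adjusted p up to 0.0665). Cdkn1a lost its call without any 1 of 5 (Ad-Cre transplant 2, MMTV-Cre transplants 1, 2 and 4, and the nulliparous tumour; adjusted p up to 0.0759). Mdm4 differed by 0.00 (adjusted p = 0.592). Cdkn2a and Cdkn2b differed by -0.01 (adjusted p = 0.893), and by 0.06 without the library labelled MMTV-Cre transplant 2 (adjusted p = 0.0104). Probes in a window followed 1 pattern across arrays: their correlation between a pair of arrays had a median of 0.84 in Mdm2, 0.86 in Ppm1d and 0.64 in Cdkn1a, over 36 pairs that share probes and pool. The part of this shared pattern in the differences was not tested.

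The tumours come from 2 Cre models, which were set side by side. Cdkn2a and Cdkn2b averaged 0.16 ± 0.13 in Ad-Cre tumours (SD, n = 2) and -0.07 ± 0.34 in MMTV-Cre tumours (SD, n = 7). The difference was 0.23, and 0.15 without the library labelled MMTV-Cre transplant 2. Leaving out any 1 tumour gave 0.14 to 0.32. Mdm2 averaged -0.10 ± 0.19 and Cdkn1a -0.12 ± 0.17 in Ad-Cre tumours, against 0.06 ± 0.16 and 0.02 ± 0.07 in MMTV-Cre tumours. The difference at Mdm2 was -0.16, but -0.03 without Ad-Cre transplant 1 and -0.29 without Ad-Cre transplant 2. At Cdkn1a it was -0.14, but -0.02 without Ad-Cre transplant 1 and -0.25 without Ad-Cre transplant 2. Mdm4 averaged -0.02 ± 0.01 and Ppm1d 0.01 ± 0.04 in Ad-Cre tumours, against -0.08 ± 0.12 and -0.01 ± 0.20 in MMTV-Cre tumours. Leaving out any 1 tumour gave differences of 0.02 to 0.09 at Mdm4 and -0.04 to 0.07 at Ppm1d. None of these 5 differences passed limma's test (adjusted p = 0.865 to 0.955, background 0.00%, with 2.38% of all windows at an unadjusted p under 0.05). In all 5 windows at least 1 Ad-Cre value lay within the MMTV-Cre range, while Ad-Cre transplant 1 lay below that range at Mdm2 and Cdkn1a and just above it at Cdkn2a and Cdkn2b. Within the scan day that holds both Ad-Cre tumours and the nulliparous and parous tumours, the differences were 0.12 at Cdkn2a and Cdkn2b, -0.24 at Mdm2, 0.18 at Mdm4, -0.12 at Ppm1d and -0.17 at Cdkn1a. None passed limma's test there either (adjusted p = 0.995).

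Among MMTV-Cre tumours, the transplants were also set against the nulliparous and parous tumours. Cdkn2a and Cdkn2b averaged -0.11 ± 0.39 in the transplants (SD, n = 5) and 0.04 ± 0.19 in the nulliparous and parous tumours (SD, n = 2). The difference was -0.15, but -0.03 without the library labelled MMTV-Cre transplant 2, -0.05 without MMTV-Cre transplant 4, -0.02 without the nulliparous tumour and -0.28 without the parous tumour. Mdm4 averaged -0.03 ± 0.09 and Ppm1d -0.06 ± 0.18 in the transplants, against -0.20 ± 0.14 and 0.13 ± 0.21 in the nulliparous and parous tumours. The difference at Mdm4 was 0.17, but 0.07 without the parous tumour and 0.27 without the nulliparous tumour. At Ppm1d it was -0.19, but -0.04 without the nulliparous tumour, -0.12 without MMTV-Cre transplant 3 and -0.34 without the parous tumour. Mdm2 averaged 0.03 ± 0.17 and Cdkn1a 0.00 ± 0.07 in the transplants, against 0.14 ± 0.10 and 0.05 ± 0.07 in the nulliparous and parous tumours. Leaving out any 1 tumour gave differences of -0.18 to -0.05 at Mdm2 and -0.10 to 0.00 at Cdkn1a. None passed limma's test (adjusted p = 0.788 to 0.866, background 0.00428%, with 5.15% of all windows at an unadjusted p under 0.05). The transplants and the other MMTV-Cre tumours were scanned on different days, so day and group cannot be told apart.

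Windows on other autosomes with the most similar values over the 9 tumours were sought by root mean square difference. For Mdm4 the nearest 3 were all on chromosome 6, at 0.05 to 0.06, and for Cdkn1a all on chromosome 14, at 0.06. For Mdm2 they were on chromosomes 14 and 12, at 0.11, and for Ppm1d on chromosome 18, at 0.10. For Cdkn2a and Cdkn2b the nearest 3 were all on chromosome 6, at 0.18 to 0.20. This measure grows with a window's own spread between tumours. The SD was 0.31 at Cdkn2a and Cdkn2b, and 0.25 without the library labelled MMTV-Cre transplant 2, against 0.10 to 0.17 in the other windows. The differences thus cannot be ranked between windows. This search was run only with that library included.

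Other genes of the pathway could be placed only by chromosome, and 24 listed genes fell on 13 chromosomes. Of these, 10 lie on chromosomes whose mean over the tumours was above 0 and 14 on chromosomes below 0, and of all 19 autosomes 10 were above and 9 below. The median over the list was -0.02, and over all autosomes 0.01. Among the 13 chromosomes that carry a listed gene, those farthest from 0 were chromosome 5, at 0.16 and above 0 in 9 of 9 tumours, with Chek2, a kinase that activates p53, Rchy1, a p53 ligase, and Cdk6, a kinase that p16Ink4a blocks, then chromosome 7 and chromosome 8. Chromosome 7 was at -0.15, below 0 in 9 of 9 tumours, and carries the p53 targets Bax and Bbc3, the inhibitor Cdkn1c and the cyclin gene Ccnd1. Chromosome 8 was at 0.14 and carries Tfdp1, which encodes a partner of E2F factors. These are levels of whole chromosomes, not of the genes.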

How the data were processed

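Tumour DNA (red, Cy5) and pooled tail DNA (green, Cy3) were hybridised together, 1 array per tumour, with no dye swap. Processed signals were deposited as an intensity for each spot and channel, which, per the file headers, Agilent Feature Extraction 10.5.1.1 corrected for background and dye, and the deposited median signals are raw intensity. The authors' ratios are log10 of red over green, used to check direction and as an alternative input to the tests. The deposited values were turned here into log2 ratios. Of 974016 spots per array, 1597 to 2115 were left out as dim in the pool or uneven, duplicate spots were averaged, and every array's autosomal median was set to 0. Member windows and 23357 autosomal windows of 100 kb with at least 3 probes were tested together with limma 3.58.1 (R 4.3.3), adjusted by Benjamini-Hochberg at 0.05. Segments came from a penalised least-squares search over bins of 5 probes. Both were run on simulated data with independent noise, which lacks the pattern that probes shared across arrays. Probes of 10 chromosomes lie beyond the last gene of GRCm38.p6, so that table gave only names, gene order and distances. Genes named are the 6 members, their nearest neighbours, and pathway genes on the 3 chromosomes, of those with a listed gene, farthest from 0. Members and lists were chosen with earlier results of these data known. The tests treat tumours as independent, and the number of arrays limits their precision.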

Additional observations from a re-analysis of the deposited data

Results flagged for a closer look

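Among the 5 MMTV-Cre transplants, 10 values were checked for a sample far from the others, and 1 had one. The values were the mean of each member window, and its difference from the 1 Mb on each side. Chance flags about 1 in 20 such values, and the values of a window are related, so the count is a description only. The sample flagged was the library labelled MMTV-Cre transplant 2 at Cdkn2a and Cdkn2b. The window lay -0.55 from the 1 Mb on each side in that library, against 0.05 to 0.09 in the other 4 transplants. The 12 lost probes in it were delimited by their low values in that library, so they were not checked in this way.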

How the results depend on the processing

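Values are log2. Under all alternatives run, 0 of 5 members passed the test against the pool. Means near 0 changed sign there: Cdkn2a and Cdkn2b was 0.073 with normexp, 0.061 with probe medians and 0.0084 with scan day as a random block, Ppm1d 0.034, 0.028 and 0.0081 in the same order, Cdkn1a 0.032 with normexp and 0.0047 with medians, and Mdm2 -0.0016 when centred on the mode. Leaving out 1 tumour gave ranges of -0.050 to 0.053 (Cdkn2a and Cdkn2b), -0.0058 to 0.060 (Mdm2), -0.039 to 0.040 (Ppm1d) and -0.027 to 0.015 (Cdkn1a). Of all windows, 3981 passed higher and 4616 lower, but 2603 higher when centred on the mode, 2857 lower with normexp and 7109 lower with scan day as a random block.

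Against the DNA around it, Mdm2 passed under every alternative run (0.04 to 0.06). Ppm1d did not pass with normexp (0.0037), or with 0.5 Mb (0.0074) or 2 Mb (0.0059) on each side, nor did Cdkn1a with medians (-0.0176) or 2 Mb (-0.0178). Cdkn2a and Cdkn2b turned positive with normexp (0.031), medians (0.049, limma adjusted p = 0.0116) and 2 Mb (0.018), and Mdm4 negative with 0.5 Mb (-0.010) and 2 Mb (-0.0038). Leaving out 1 tumour gave -0.027 to 0.057 for Cdkn2a and Cdkn2b, 0.015 to 0.018 for Ppm1d and -0.020 to -0.015 for Cdkn1a. With medians the window of the library labelled MMTV-Cre transplant 2 was -0.030, since the run is 12 of 45 probes. The run itself was -1.57 with normexp, whose offset shrinks ratios of dim spots.

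No difference between groups of tumours passed for a member under any alternative run. Ad-Cre minus MMTV-Cre for Ppm1d was -0.12 both within the scan day that holds both models and with day as a block, and -0.035 to 0.071 leaving out 1 tumour. Of all windows, 0 passed there, against 38 higher and 124 lower within that day, 4 higher with the block, and 0 to 3 higher leaving out 1 tumour. For MMTV-Cre transplants minus the nulliparous and parous tumours, Cdkn1a ranged from -0.10 to 5.4e-05 leaving out 1 tumour. Of all windows, 1 passed there, against 28 higher with no spot filter and 0 with normexp, with both channels filtered or with medians. Leaving out 1 tumour gave 0 to 30 higher and 0 to 83 lower, with 30 without MMTV-Cre transplant 2 and 83 without the nulliparous tumour.

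Gains and losses depended on thresholds. At 0.15, Cdkn2a and Cdkn2b was gained in 2 tumours, Mdm2 gained in 2 and lost in 2, Mdm4 lost in 2 and Cdkn1a lost in 1. At 0.4, the losses of Mdm2, Mdm4 and Ppm1d and the gain of Ppm1d were 0. Normexp gave 2 gains each of Cdkn2a and Cdkn2b and of Mdm2, a penalty factor of 5 gave 1 gain of Mdm2, and centring on the mode 1 loss of Cdkn1a. Window means in place of segments gave 1 gain and 2 losses of Cdkn2a and Cdkn2b, and 1 gain and 0 losses of Mdm2. The causes of these changes were not tested. Shares of all autosomal windows gained or lost were given for the main settings only. The counts under these alternatives thus have no background to be set against. No paired analysis was possible because the replicate numbers follow the order of deposit. The scan-day block and the alternatives on the short run were chosen after seeing the data. With 1 array per tumour and no pool against pool array, array error and tumour spread cannot be told apart.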
